A study of Mus musculus with 6 samples.

Results

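The glutathione, NRF2 and antioxidant genes are a set of 46 named genes, listed by gene symbol for what they are known to do, with earlier results of these data known. Of the 46, 45 had rows in the deposited tables and all 45 had enough signal to be tested (0.1 FPKM or more on average over the 6 libraries), out of 20788 genes listed and 14336 genes tested. Txnrd1, the cytosolic thioredoxin reductase, was not analysed here. The members were sorted by role into NRF2 and its inhibitor, NRF2 target enzymes, glutathione synthesis, peroxiredoxins, the pentose phosphate pathway, glutathione transferases, peroxidases with superoxide dismutases, and aldo-keto reductases.

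The data are RNA-seq profiles of cultured B16 cells, a pigmented mouse melanoma line of C57BL/6 origin. Tyr-L cells, with low tyrosinase activity, were compared with Tyr-H cells, with high tyrosinase activity, in 3 libraries each. Both are subclones of the same line, picked after growth as single colonies, and both grew in low glucose DMEM with serum and no stated treatment, so the comparison is between selected cell lines and not between treatments. Whether the replicate libraries stand for different cultures or different subclones is not given in the sources used here. The p-values therefore measure the spread between these libraries, which may be technical.

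NRF2, encoded by Nfe2l2, is a transcription factor that KEAP1 holds at a low level by steering it to degradation, and that is released when KEAP1 cysteines are modified by oxidants. NRF2 then pairs with a small MAF protein on the antioxidant response element (ARE) of genes for glutathione synthesis, detoxification and NADPH supply, while BACH1 competes for the same elements. Glutathione is built from glutamate, cysteine and glycine, its cysteine comes from imported cystine or from methionine through transsulfuration, and in pigment cells thiols also react with the quinones formed during melanin synthesis.

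Libraries held an estimated 18700000 to 21200000 fragments and 16813 to 17413 genes with a value. Within a group the median gene differed between libraries by 0.0953 to 0.114 on the log2 scale, against 0.315 to 0.371 between groups. Tyr, which encodes tyrosinase, was higher in the cells labelled as high in its activity, with 10.7, 9.52 and 9.80 FPKM in Tyr-L, against 23.8, 20.6 and 19.7 FPKM in Tyr-H cells. All 7 melanocyte lineage markers were present, with summed levels of 7343 to 7660 FPKM in Tyr-L, against 5438 to 5958 FPKM in Tyr-H libraries, and Mitf fell by 1.85 on the log2 scale, while Tyrp1 and Dct, which encode the other melanin enzymes, differed by -0.23 and -0.64. The immune markers Ptprc, Cd3e, Adgre1, Csf1r and Ly6g were not listed in any library, while the 3 fibroblast markers summed to 0.928 to 1.08 FPKM, endothelial markers to at most 0.0540 FPKM and keratinocyte markers to at most 0.0349 FPKM. The summed level of 3 mitochondrially encoded transcripts was 18565 to 19453 FPKM in Tyr-L, against 31936 to 34397 FPKM in Tyr-H libraries, with Tyr-H to Tyr-L ratios of 2.19 for mt-Co1, 1.40 for mt-Nd1 and 1.12 for mt-Cytb, and their part in the results was not tested.

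Promoter sequence is described first, because the ARE is what links many of these genes, although it was searched after the expression fit. RefSeq windows of 300 bases on GRCm38.p6 (250 before and 50 after each start site) were found for 39 of the 46 genes. No window was available for Hmox1, Gclc, Gsr, Cth, Prdx6, Gsta4 and Akr1b3, so their promoters were not searched. The ARE core TGACNNNGC, searched on both strands, was present in the windows of 11 of those 39 genes, and in 11 of their 47 windows (23.4%), against 12.4% of all 32851 windows. The AP-1 site TGANTCA, which overlaps some ARE cores, was present for 5 genes, in 5 of the 47 windows (10.6%), against 7.81% of all windows. In 7 analysed genes the ARE core lay within the 150 bases before the start site. The 5 whose match lies outside annotated untranslated regions are printed below, 5′ to 3′ on the strand of the gene, with the match in capitals, so that a core in front of a gene can be set beside what the gene did. A GCNNNGTCA in capitals is the core read on the opposite strand.
Gclm (chr3:122245407-122245556, + strand): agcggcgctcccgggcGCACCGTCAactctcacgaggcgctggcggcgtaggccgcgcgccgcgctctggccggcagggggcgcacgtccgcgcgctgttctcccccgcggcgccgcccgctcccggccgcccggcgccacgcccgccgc
Prdx1 (chr4:116685449-116685543, + strand): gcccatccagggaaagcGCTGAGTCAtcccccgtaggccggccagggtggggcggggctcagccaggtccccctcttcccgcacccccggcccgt
Gsta3 (chr1:21240435-21240584, + strand): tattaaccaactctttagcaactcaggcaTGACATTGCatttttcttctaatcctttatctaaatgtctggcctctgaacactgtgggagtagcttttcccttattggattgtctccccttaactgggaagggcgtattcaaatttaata
Gstm5 (chr3:107895704-107895820, + strand): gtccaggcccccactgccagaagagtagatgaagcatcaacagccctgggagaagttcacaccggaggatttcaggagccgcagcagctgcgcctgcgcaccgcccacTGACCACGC
Sod1 (chr16:90220612-90220753, + strand): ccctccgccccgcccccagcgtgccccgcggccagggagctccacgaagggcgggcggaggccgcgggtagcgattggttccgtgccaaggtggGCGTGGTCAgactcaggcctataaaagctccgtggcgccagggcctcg

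The match began 134 bases before the RefSeq start in Gclm, 133 in Prdx1, 121 in Gsta3, 42 in Gstm5 and 56 in Sod1. In G6pdx and Mgst1 a core began 57 and 56 bases before the RefSeq start, but inside an annotated untranslated region, whose gene and strand were not checked. Of these 7 genes Gsta3 and Mgst1 were called lower in Tyr-H cells, as were 5.78% of all tested genes, and the other 5 were not called in either direction. Hmox1 and Cth, which were called higher, and Gsta4, which was called lower, had no window to search. A match is a description of the letters, not evidence of a bound site.

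Across the members, 4 rose and 6 fell in Tyr-H cells. A gene was called when its adjusted p from limma was at most 0.05 and its log2 fold change, Tyr-H minus Tyr-L on log2(FPKM + 0.1), was at least 1 in size. Hmox1, Cth, Gsto1 and Akr1b7 were called higher, where 2.96% of all tested genes were. Cbr1, Gsta1, Gsta2, Gsta3, Gsta4 and Mgst1 were called lower, where 5.78% of all tested genes were. In either direction this makes 10 of 45 members (22.2%), against 8.75% of all tested genes. These are bulk libraries, in which a smaller number of expressing cells and less RNA per cell cannot be told apart.

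**Figure D1:**
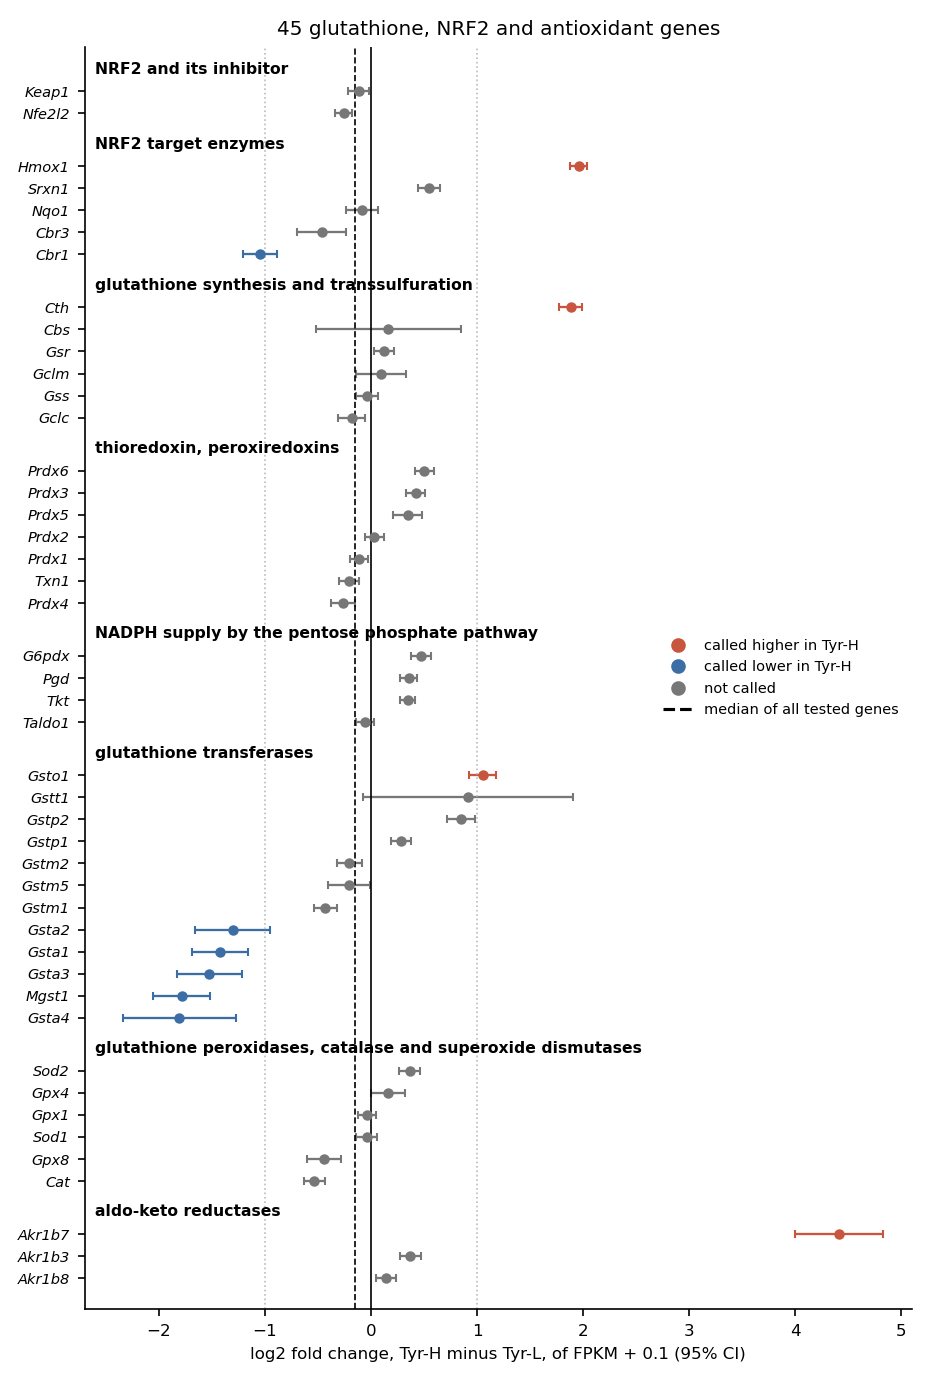
Log2 fold change of each of the 45 members, Tyr-H minus Tyr-L, on log2(FPKM + 0.1), with 95% confidence intervals from limma, grouped by role; the dashed line is the median of all tested genes (-0.15) and the dotted lines mark 1 and -1. Akr1b7 stands farthest to the right at 4.41, and the 4 alpha class transferases and Mgst1 lie to the left of -1, with Cbr1 just past it.

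Most members differed by little. The log2 fold change lay within 0.5 of 0 for 30 of 45 members (66.7%) and for 68.4% of all tested genes, and the median was -0.04 over the members against -0.15 over all tested genes. With the adjusted p alone, 17 members were higher (37.8%, against 17.9% of all tested genes) and 17 were lower (37.8%, against 39.9%). The Tyr-H libraries lay wholly above the Tyr-L libraries for 18 members (40.0%, against 20.2% of all tested genes) and wholly below for 17 (37.8%, against 43.8%), and overlapped for 10. With 3 libraries against 3 the exact two-sided permutation test of a single gene cannot go below p = 0.1, which is its value for each of those 35 members.

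Because the median of all genes was not 0, small changes depended on the scaling. The median of all tested genes moved from -0.15 to -0.01 after median ratio scaling or quantile normalization and to -0.25 after each library was rescaled to a total of 1000000, which also brought the number of tested genes to 15719. Under all 4 scalings 15 members passed the adjusted p as higher and 11 as lower. The sign itself differed between scalings for 8 members, namely Keap1, Nqo1, Gss, Prdx1, Prdx2, Taldo1, Gpx1 and Sod1.

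**Figure D2:**
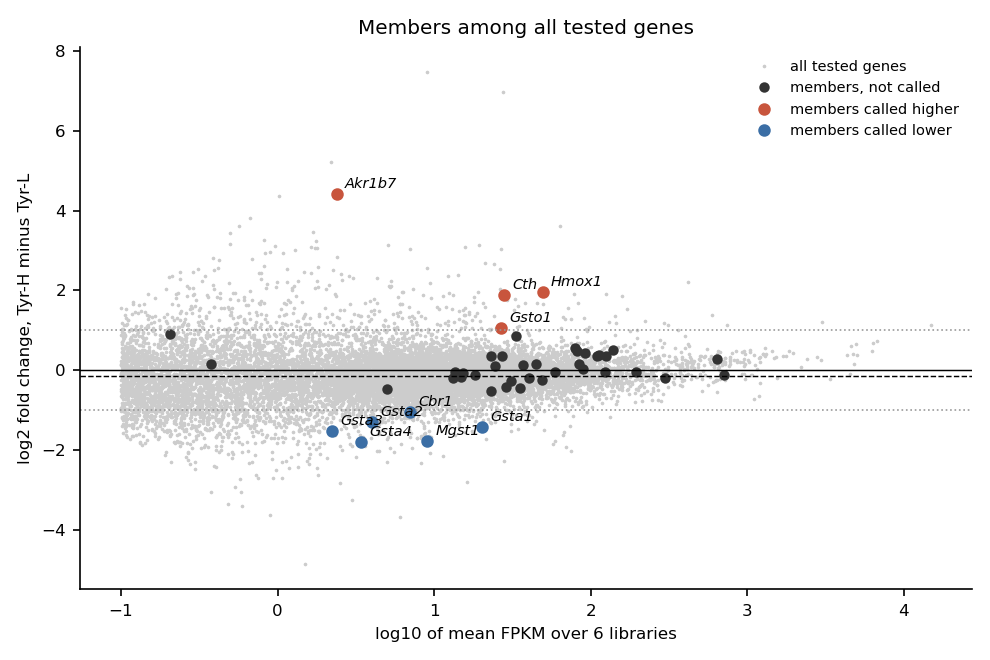
Log2 fold change (Tyr-H minus Tyr-L, on log2(FPKM + 0.1)) against the log10 of the mean FPKM over the 6 libraries, for all 14336 tested genes in grey and the 45 members as large points. The median member had a mean of 31.1 FPKM against 7.43 FPKM for the median tested gene, and the 6 members called lower sit between 1 and 30 FPKM.

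NRF2 and its inhibitor differed by small amounts. Nfe2l2, which encodes NRF2, had 52.6, 52.8 and 54.9 FPKM in Tyr-L, against 43.6, 45.0 and 45.4 FPKM in Tyr-H cells. The groups did not overlap, and the log2 fold change was -0.26 (SE 0.04, limma adjusted p = 0.00021), or -0.10 relative to the median of all genes. Keap1, the adaptor that marks NRF2 for degradation, had 18.6, 18.6 and 19.5 FPKM in Tyr-L, against 17.0, 17.7 and 17.5 FPKM in Tyr-H cells. Its log2 fold change was -0.11 (SE 0.04, limma adjusted p = 0.046), but 0.04 after median ratio scaling and 0.01 after quantile normalization, and the adjusted p was missed when any of the 6 libraries was left out (0.062 to 0.15). NRF2 is set mainly at the protein level, which these libraries do not measure.

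Among the 5 analysed NRF2 target enzymes Hmox1 rose, Cbr1 fell and Nqo1 overlapped between groups. Hmox1, heme oxygenase 1, which opens heme to biliverdin, carbon monoxide and iron, lies at chr8:75093621-75100589 (+ strand, GRCm38). It had 20.0, 20.0 and 20.4 FPKM in Tyr-L, against 76.9, 78.1 and 80.7 FPKM in Tyr-H cells. Each Tyr-H library was far above each Tyr-L library, the means stood at a ratio of 3.90, and the log2 fold change was 1.96 (SE 0.04, limma adjusted p = 1.1e-08). Nqo1, the quinone reductase often read as the marker of NRF2 activity, had 15.96, 15.4 and 15.6 FPKM in Tyr-L, against 13.4, 15.2 and 15.9 FPKM in Tyr-H cells. Its difference of -0.08 had a 95% confidence interval of -0.23 to 0.06 (limma adjusted p = 0.30), and its sign turned with the scaling.

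Srxn1, sulfiredoxin, which repairs overoxidized peroxiredoxins, was the most abundant of these enzymes, with 66.2, 64.5 and 63.2 FPKM in Tyr-L, against 88.2, 97.0 and 98.2 FPKM in Tyr-H cells. It was higher without overlap by 0.54 (SE 0.05, limma adjusted p = 1e-05), under the fold threshold. Cbr1, carbonyl reductase 1, lies at chr16:93605853-93610505 (+ strand). It had 9.44, 9.57 and 9.35 FPKM in Tyr-L, against 4.15, 4.77 and 4.67 FPKM in Tyr-H cells. It fell by 1.05 on the log2 scale (SE 0.07, limma adjusted p = 3.6e-06), just past the threshold. The call was lost with median ratio scaling (-0.90), quantile normalization (-0.88), a pseudocount of 1 FPKM (-0.92) and without Tyr-H replicate 1 (-0.99). Its neighbour Cbr3 averaged 5.85 ± 0.59 FPKM in Tyr-L, against 4.21 ± 0.43 FPKM in the Tyr-H libraries (SD, n = 3 each) and was lower by the adjusted p (-0.47, SE 0.10, limma adjusted p = 0.0037).

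**Figure D3:**
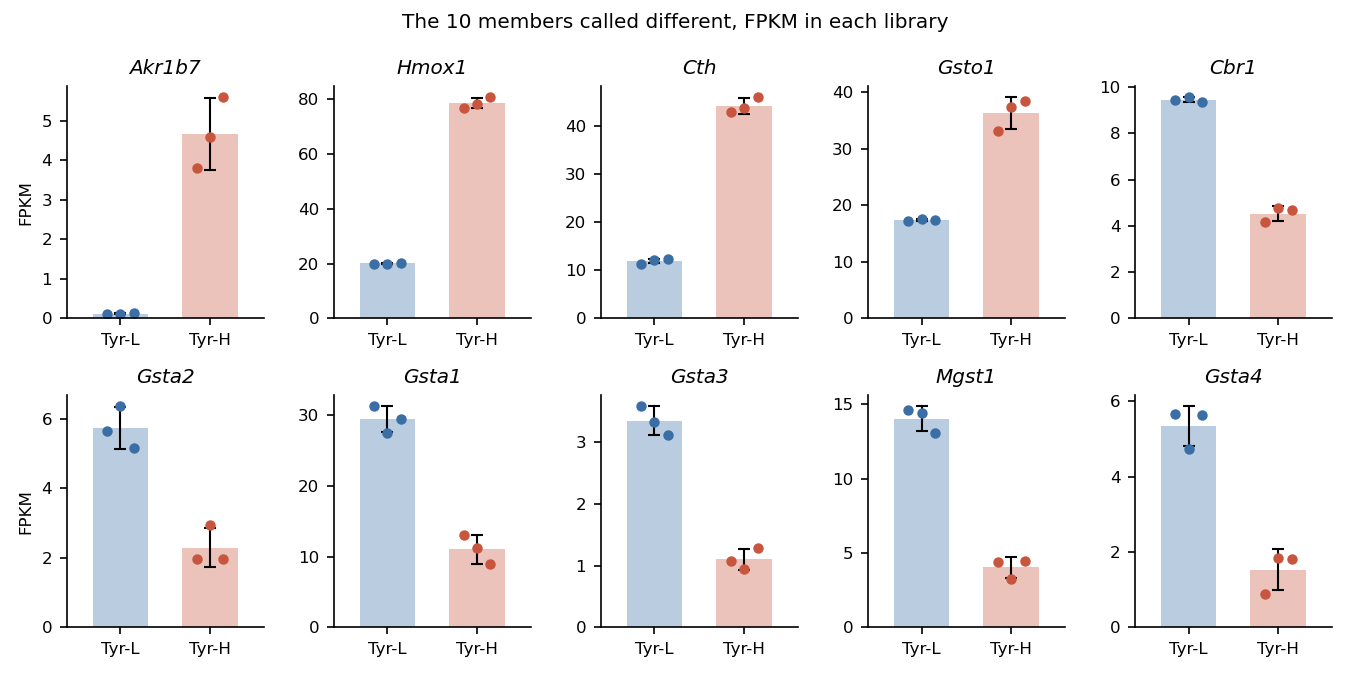
FPKM of the 10 members called different, in order of log2 fold change; bars are group means from 0, error bars are SD over 3 libraries and points are single libraries. In each panel the 3 Tyr-L and 3 Tyr-H points do not overlap.

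In glutathione synthesis only the transsulfuration enzyme Cth was called, while the differences of Gclc, Gclm, Gss and Gsr lay between -0.18 and 0.12 on the log2 scale. Cth, cystathionine gamma-lyase, which releases cysteine from cystathionine, lies at chr3:157894248-157925077 (- strand). It had 11.3, 12.1 and 12.3 FPKM in Tyr-L, against 42.9, 43.6 and 45.9 FPKM in Tyr-H cells. It rose by 1.88 on the log2 scale (SE 0.05, limma adjusted p = 2.7e-08), a ratio of means of 3.71. It overlaps Gm43314 on the same strand. Cbs, cystathionine beta-synthase, which makes the substrate of Cth, was low, at 0.520, 0.183 and 0.375 FPKM in Tyr-L, against 0.392, 0.406 and 0.370 FPKM in Tyr-H cells. The Tyr-H libraries of Cbs lay inside the Tyr-L range, and its difference of 0.16 had a 95% interval of -0.52 to 0.85.

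Gclc, the catalytic subunit of glutamate-cysteine ligase, the enzyme of the rate-limiting step, averaged 15.8 ± 0.53 FPKM in Tyr-L, against 13.9 ± 0.78 FPKM in the Tyr-H libraries (SD, n = 3 each). Its difference of -0.18 passed the adjusted p (limma adjusted p = 0.019) but was close to the median of all genes. Gclm, the modifier subunit whose promoter core is printed above, had 27.8, 22.7 and 20.9 FPKM in Tyr-L, against 22.7, 27.4 and 25.8 FPKM in Tyr-H cells. These groups overlapped, with a difference of 0.10 (95% interval -0.14 to 0.33). Gss, glutathione synthetase, averaged 13.7 and 13.3 FPKM (limma adjusted p = 0.53). Gsr, glutathione reductase, the most abundant of the 6 by its mean over all libraries (in Tyr-H cells Cth was higher), had 35.1, 35.2 and 35.1 FPKM in Tyr-L, against 37.3, 40.6 and 37.2 FPKM in Tyr-H cells, a difference of 0.12 (SE 0.04, limma adjusted p = 0.034) that shrank to 0.03 after rescaling to a common total and to 0.08 without Tyr-H replicate 2, and that missed the adjusted p there and when any Tyr-L library was left out (0.070 to 0.080).

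The steps before and after synthesis were read from a wider list of 77 pathway genes that are not members, of which 71 were tested. Slc7a11, the cystine importer xCT, had 13.8, 12.5 and 13.4 FPKM in Tyr-L, against 40.5, 46.7 and 47.5 FPKM in Tyr-H cells, a rise of 1.75 (SE 0.07, limma adjusted p = 2.1e-07). Slc3a2, the heavy chain that carries xCT to the membrane, had 76.0, 86.4 and 79.1 FPKM in Tyr-L, against 185, 206 and 225 FPKM in Tyr-H cells, a rise of 1.35 (SE 0.07, limma adjusted p = 8.9e-07). Chac1, which cleaves glutathione in the cytosol, had 4.99, 9.36 and 5.82 FPKM in Tyr-L, against 33.4, 45.8 and 45.8 FPKM in Tyr-H cells, a rise of 2.65 (SE 0.21, limma adjusted p = 7.6e-06). The Tyr-H libraries lay wholly above the Tyr-L libraries for Slc7a11, Slc3a2, Cth and Chac1, as for 20.2% of all tested genes. All are also known targets of the amino acid response factor ATF4, whose part here was not tested. Other genes of glutathione turnover were not called, with log2 fold changes of 0.07 for Chac2, -0.14 for Ggct and 0.03 for Ggt1, each with overlapping groups, and Ggt7 was lower without overlap (-0.42, limma adjusted p = 0.00017). The exporters Abcc1 and Abcc4 were higher without overlap by 0.38 and 0.26 (limma adjusted p = 0.00014 and 0.0026), and Oplah differed by 0.46 with overlapping groups.

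**Figure D4:**
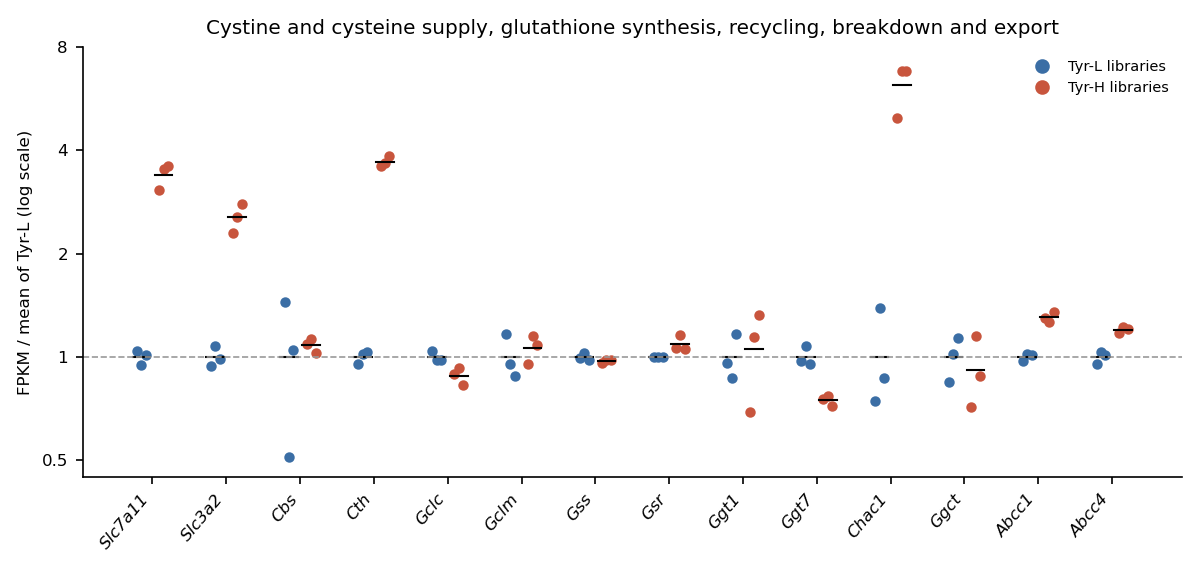
FPKM in each library divided by the Tyr-L mean of the gene (log axis), for genes of cystine import, transsulfuration, glutathione synthesis, recycling, breakdown and export; short black lines are group means. Slc7a11, Slc3a2, Cth and Chac1 stand at ratios of 2.55 to 6.19, while the means of Gclc, Gclm, Gss and Gsr lie between 0.882 and 1.09.

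The peroxiredoxins, which reduce hydrogen peroxide with thiols, split by member, and none was called. Prdx1, the most abundant member by its mean over the 6 libraries (in each Tyr-H library Gstp1 was higher), had 723, 750 and 740 FPKM in Tyr-L, against 664, 681 and 703 FPKM in Tyr-H cells. Its difference of -0.11 (SE 0.04, limma adjusted p = 0.023) was -0.21 after rescaling to a common total and -0.26 after quantile normalization, but 0.04 after median ratio scaling. The adjusted p was missed without Tyr-L replicate 2, Tyr-L replicate 3, Tyr-H replicate 1 or Tyr-H replicate 2 (0.065 to 0.080). Prdx6, a peroxidase that uses glutathione, had 114, 120 and 112 FPKM in Tyr-L, against 160, 160 and 170 FPKM in Tyr-H cells and was higher without overlap by 0.50 (SE 0.04, limma adjusted p = 6.8e-06). Prdx3 and Prdx5, which work in mitochondria (Prdx5 also elsewhere), were higher by 0.42 and 0.35, and Prdx4, the form of the endoplasmic reticulum, was lower by the adjusted p (-0.26). Txn1, cytosolic thioredoxin, averaged 319 ± 11.7 FPKM in Tyr-L, against 277 ± 12.7 FPKM in the Tyr-H libraries (SD, n = 3 each; log2 fold change -0.21), and Prdx2 overlapped. Summed over the 6 peroxiredoxins the level was 1077 ± 18.2 FPKM and 1100 ± 32.4 FPKM (exact permutation p = 0.4, n = 3 each), with overlapping groups.

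Of the 4 pentose phosphate enzymes 3 were higher by the adjusted p (as were 17.9% of all tested genes) and none was called. The oxidative arm supplies the NADPH that glutathione reductase and thioredoxin reductase use. G6pdx, its first enzyme, averaged 68.5 ± 0.94 FPKM in Tyr-L, against 95.1 ± 5.04 FPKM in the Tyr-H libraries (SD, n = 3 each; log2 fold change 0.47, SE 0.04, limma adjusted p = 1.5e-05). Pgd, 6-phosphogluconate dehydrogenase, had 111, 108 and 109 FPKM in Tyr-L, against 134, 140 and 145 FPKM in Tyr-H cells (log2 fold change 0.35), and Tkt, transketolase of the non-oxidative arm, differed by 0.34. Taldo1, transaldolase, had 124, 128 and 125 FPKM in Tyr-L, against 117, 119 and 126 FPKM in Tyr-H cells, with overlap. The sum of the 4 was 399 ± 2.92 FPKM in Tyr-L, against 478 ± 15.2 FPKM in Tyr-H cells, without overlap. Among 8 further genes grouped with NADPH supply on the wider list, Pgls alone was higher by the adjusted p (0.38; 12.5%, against 17.9% of all tested genes). Lower were 3 (37.5%, against 39.9%), namely Idh1 (-0.76, limma adjusted p = 5e-07), Rpia (-0.26) and Rpe (-0.23). Me1, Idh2 and Nnt overlapped, and H6pd differed by 0.09 (limma adjusted p = 0.17). G6pdx overlaps Ikbkg on the opposite strand, and the strand setting of the counting is not given in the sources used here.

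The glutathione transferases, which join glutathione to electrophiles, held most of the members that fell. All 4 alpha class genes and the microsomal Mgst1 were called lower and the omega class Gsto1 was called higher. That is 5 of 12 transferases called lower (41.7%, against 5.78% of all tested genes) and 1 called higher (8.33%, against 2.96%). Gsta4, whose enzyme handles the lipid peroxidation product 4-hydroxynonenal, had 5.66, 4.74 and 5.63 FPKM in Tyr-L, against 0.896, 1.85 and 1.83 FPKM in Tyr-H cells. It fell by 1.80 (SE 0.24, limma adjusted p = 0.00016). Without Tyr-H replicate 1, its lowest library, it fell by 1.48. Mgst1, a membrane-bound transferase and peroxidase, lies at chr6:138140316-138156755 (+ strand). It had 14.6, 14.4 and 13.1 FPKM in Tyr-L, against 4.39, 3.24 and 4.49 FPKM in Tyr-H cells, a fall of 1.78 (SE 0.12, limma adjusted p = 2.9e-06).

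Gsta3, one of the genes with an ARE core printed above, had 3.58, 3.33 and 3.11 FPKM in Tyr-L, against 1.08, 0.942 and 1.28 FPKM in Tyr-H cells. It fell by 1.53 (SE 0.14, limma adjusted p = 1.5e-05). It overlaps Gm28836 on the opposite strand. Gsta1, the most abundant alpha class gene, had 31.3, 27.6 and 29.5 FPKM in Tyr-L, against 13.0, 11.2 and 8.90 FPKM in Tyr-H cells, and Gsta2 had 5.63, 6.36 and 5.17 FPKM in Tyr-L, against 1.97, 2.94 and 1.96 FPKM in Tyr-H cells. On the log2 scale Gsta1 fell by 1.42 (SE 0.12, limma adjusted p = 9.6e-06) and Gsta2 fell by 1.30 (SE 0.16, limma adjusted p = 9.3e-05). Their separate values are uncertain, since 92.9% of the 31-base words in the Gsta1 transcripts and 60.7% of those of Gsta2 also occur in another gene. Summed before the fit, Gsta1 and Gsta2 fell by 1.40, and by 1.37 with Gm3776, the gene that shares most with Gsta1. Gsta1, Gsta2 and Gsta4 lie within chr9:78182774-78355788, whereas Gsta3 is on chromosome 1.

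Gsto1, the omega class transferase that also reduces dehydroascorbate, lies at chr19:47854970-47864790 (+ strand). It had 17.3, 17.6 and 17.4 FPKM in Tyr-L, against 33.1, 37.4 and 38.5 FPKM in Tyr-H cells. It rose by 1.05 (SE 0.06, limma adjusted p = 9.9e-07), and by 0.96 after rescaling to a common total, which ended the call. Its neighbour Gsto2, from the wider list, had 0.303, 0.452 and 0.293 FPKM in Tyr-L, against 0.816, 0.941 and 0.951 FPKM in Tyr-H cells, a rise of 1.17 (SE 0.21, limma adjusted p = 0.0011), or 0.50 and not called with a pseudocount of 1 FPKM. Both genes overlap Cfap43 on the opposite strand. Gstp1, the pi class transferase that made up most transferase RNA, had 579, 590 and 578 FPKM in Tyr-L, against 680, 701 and 746 FPKM in Tyr-H cells and was higher by 0.28 (SE 0.04, limma adjusted p = 0.00026). Gstp2 had 22.1, 25.7 and 23.3 FPKM in Tyr-L, against 41.9, 41.7 and 44.4 FPKM in Tyr-H cells, a difference of 0.85 (SE 0.06) that reached 1.00 and was called after median ratio scaling. Gstp2 shares 60.3% of its words with other genes, mostly Gstp1, and the summed pair differed by 0.31.

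The mu class members Gstm1, Gstm2 and Gstm5 were lower or overlapped. Of the mu class genes on the wider list, Gstm6 was higher without overlap (log2 fold change 0.69, SE 0.26, limma adjusted p = 0.044), while the groups overlapped for Gstm7 (-1.04, limma adjusted p = 0.076) and Gstm4 (0.05). Gstm1 averaged 32.9 ± 1.68 FPKM in Tyr-L, against 24.4 ± 0.72 FPKM in the Tyr-H libraries (SD, n = 3 each; log2 fold change -0.43, limma adjusted p = 5.8e-05), Gstm2 differed by -0.20 and Gstm5 by -0.21 with overlapping groups. Gstt1, the theta class gene, had no row in Tyr-L replicate 3, where it was set to 0, and had 0.244 and 0.140 FPKM in the other Tyr-L libraries and 0.255 to 0.311 FPKM in Tyr-H libraries, and its difference of 0.92 did not pass (limma adjusted p = 0.10). It was called without Tyr-L replicate 1. By class, the alpha sum was 43.8 ± 2.10 FPKM in Tyr-L, against 15.96 ± 1.73 FPKM in Tyr-H cells, the mu sum 90.1 ± 1.55 and 74.0 ± 2.80 FPKM, and the pi sum 606 ± 8.63 and 752 ± 34.8 FPKM (SD, n = 3 each, no overlap in any class). As a share of the 12 transferases the alpha class went from 5.68% to 1.82%, the mu class from 11.7% to 8.39% and the pi class from 78.5% to 85.2%. The sum of all 12 was 772 FPKM in Tyr-L, against 882 FPKM in Tyr-H cells, most of it the pi class.

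**Figure D5:**
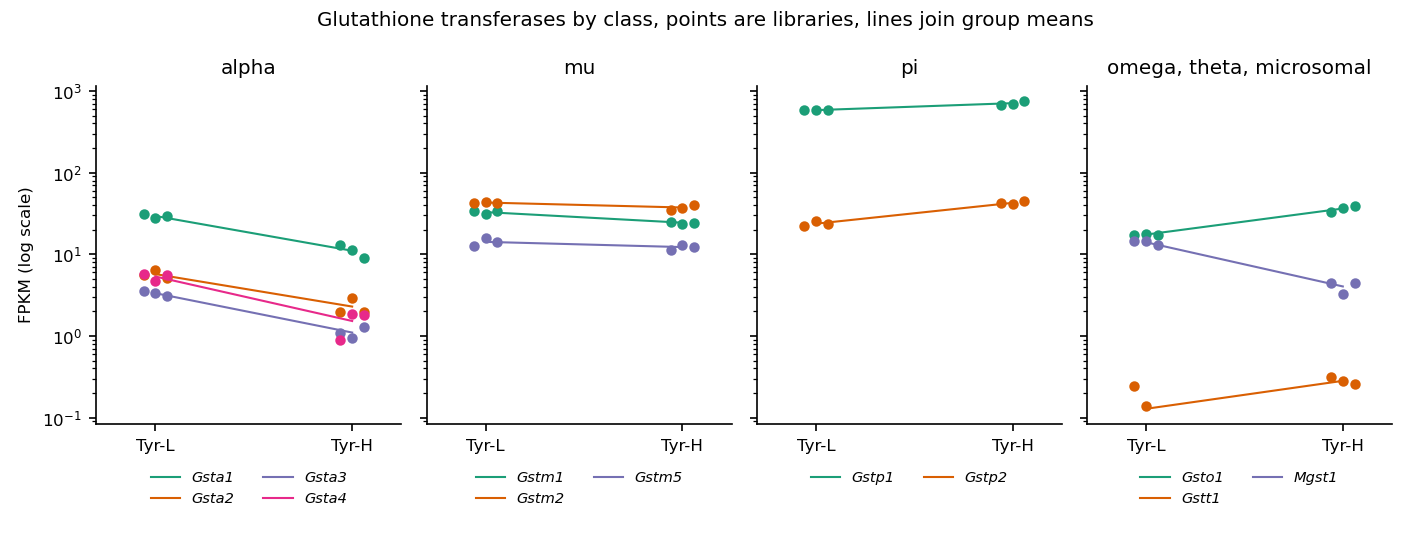
FPKM of the 12 glutathione transferase members in each library (log axis), by class; points are libraries and lines join the group means, and the Tyr-L library without a row for Gstt1 has no point. The 4 alpha class lines and Mgst1 go down, the pi class and Gsto1 go up, and the mu class lines slope down by less than the alpha class lines.

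No glutathione peroxidase, catalase or superoxide dismutase was called. Sod1, the cytosolic superoxide dismutase and the most abundant of them, had 202, 200 and 187 FPKM in Tyr-L, against 184, 187 and 201 FPKM in Tyr-H cells, with overlap, a difference of -0.04 (95% interval -0.14 to 0.06) and a sign that turned with the scaling (0.11 after median ratio scaling). Sod2, the mitochondrial form, averaged 20.0 ± 0.71 FPKM in Tyr-L, against 25.8 ± 0.49 FPKM in Tyr-H cells and was higher by 0.36 (SE 0.04, limma adjusted p = 8.4e-05). Cat, catalase, had 27.2, 26.9 and 28.1 FPKM in Tyr-L, against 18.3, 19.8 and 18.6 FPKM in Tyr-H cells and was lower without overlap (log2 fold change -0.53, SE 0.05, limma adjusted p = 1.1e-05). Gpx8, a peroxidase of the endoplasmic reticulum, differed by -0.44, Gpx1 overlapped at 60.1 and 58.6 FPKM, and Gpx4, which reduces lipid hydroperoxides, averaged 79.2 ± 3.73 and 88.8 ± 9.50 FPKM with overlap (log2 fold change 0.16, limma adjusted p = 0.073). Of the Gpx4 words 38.9% also occur in another gene, mostly a processed copy.

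Of the aldo-keto reductases, which reduce aldehydes with NADPH, Akr1b7 went from near 0 to a low but clear level. Akr1b7 had 0.102, 0.123 and 0.140 FPKM in Tyr-L, against 3.79, 4.60 and 5.60 FPKM in Tyr-H cells. The Tyr-L values correspond to an estimated 9 fragments over 3 libraries and the Tyr-H values to 356, a ratio of 39.1 with a 95% interval of 20.4 to 86.3 that covers counting error only. The fitted log2 fold change was 4.41 (SE 0.18, limma adjusted p = 2.9e-07) and depends on the pseudocount. It was 2.32 with a pseudocount of 1 FPKM and 5.14 with 0.01 FPKM. Akr1b3, aldose reductase and the most abundant of the 3, had 97.6, 102 and 98.0 FPKM in Tyr-L, against 124, 124 and 137 FPKM in Tyr-H cells (log2 fold change 0.37, SE 0.04, limma adjusted p = 8.3e-05). Akr1b8 averaged 42.4 ± 1.03 and 47.0 ± 2.08 FPKM (log2 fold change 0.15). All 3 lie on chromosome 6, with Akr1b7 at chr6:34412334-34423142 (+ strand), and Akr1b10 of the wider list, from the same family, differed by -0.17. Akr1b7 shares 10.1% of its words with other genes and overlaps Gm13857 on the opposite strand.

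On the wider list 9 of 71 genes rose (12.7%, against 2.96% of all tested genes) and 2 fell (2.82%, against 5.78%), and with the adjusted p alone 25 were higher (35.2%, against 17.9% of all tested genes) and 19 lower (26.8%, against 39.9%). Among the partners and regulators of NRF2, Maff, a small MAF, had 1.80, 1.92 and 1.31 FPKM in Tyr-L, against 5.53, 5.39 and 5.65 FPKM in Tyr-H cells, a rise of 1.68 (SE 0.14). Sqstm1, the autophagy receptor p62, which binds KEAP1, had 459, 472 and 464 FPKM in Tyr-L, against 975, 1014 and 1080 FPKM in Tyr-H cells, a rise of 1.14 (SE 0.04), or 0.96 and not called with quantile normalization. The groups overlapped in neither gene, and the adjusted p values from limma were 8.9e-06 and 1.8e-07. Nfe2l1, the NRF2 relative that drives proteasome genes, had 54.5, 60.6 and 61.2 FPKM in Tyr-L, against 94.8, 111 and 106 FPKM in Tyr-H cells, and was higher by 0.82 (SE 0.06, limma adjusted p = 7e-06). Bach1, the repressor of Hmox1, had 7.29, 7.41 and 8.11 FPKM in Tyr-L, against 5.27, 5.98 and 5.40 FPKM in Tyr-H cells, and was lower by the adjusted p (log2 fold change -0.45, SE 0.08, limma adjusted p = 0.00081). Mafg and Mafk, small MAFs more abundant than Maff, averaged 30.1 and 11.5 FPKM in Tyr-L, against 34.7 and 14.1 FPKM in Tyr-H cells. Their log2 fold changes were 0.20 and 0.29. Cul3 was lower without overlap (-0.37, limma adjusted p = 0.00065), and Bach2 differed by -0.36 with overlapping groups.

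Sesn2, sestrin 2, had 8.33, 10.9 and 9.11 FPKM in Tyr-L, against 19.0, 23.2 and 23.4 FPKM in Tyr-H cells, a rise of 1.20 (SE 0.11, limma adjusted p = 1.7e-05). Sesn1, which was not called, averaged 5.95 FPKM in Tyr-L, against 3.34 FPKM in Tyr-H cells, and was lower without overlap (-0.81, limma adjusted p = 3.3e-05). Osgin1, a known NRF2 target, had 15.2, 16.1 and 16.9 FPKM in Tyr-L, against 32.0, 35.1 and 34.1 FPKM in Tyr-H cells, a rise of 1.07 (SE 0.05, limma adjusted p = 6.5e-07), or 0.97 and not called after rescaling to a common total. Cbr2, a carbonyl reductase, had 0.389, 0.551 and 0.319 FPKM in Tyr-L, against 1.62, 2.46 and 2.12 FPKM in Tyr-H cells, a rise of 2.07 (SE 0.22, limma adjusted p = 4.4e-05). At these low levels the size of the rise depends on the pseudocount. The groups did not overlap for Sesn2, Osgin1 or Cbr2. Of 12 genes grouped as other reductases and detoxification, 5 were higher by the adjusted p (41.7%, against 17.9% of all tested genes). Lower were 4 (33.3%, against 39.9%), with Ephx1 (-0.46) and Ugdh (-0.39) the furthest. Blvrb (-0.47) and Blvra (-0.27), of the heme and iron genes, were also lower by the adjusted p, while Fth1 was higher (0.35). Txnip, which binds and inhibits thioredoxin, had 2.39, 1.22 and 1.58 FPKM in Tyr-L, against 0.368, 0.280 and 0.641 FPKM in Tyr-H cells, and fell by 1.79 (SE 0.30, limma adjusted p = 0.00069), or by 0.92 and not called with a pseudocount of 1 FPKM. Sod3, the extracellular superoxide dismutase, had 2.63, 2.40 and 2.31 FPKM in Tyr-L, against 1.30, 0.970 and 1.06 FPKM in Tyr-H cells. It fell by 1.08 (SE 0.14, limma adjusted p = 0.00015), but was not called with a pseudocount of 1 FPKM (-0.71), median ratio scaling (-0.94), quantile normalization (-0.89) or without Tyr-H replicate 2 (-0.995). The 9 genes that rose included 3 for cystine import or glutathione breakdown, 2 regulators of the NRF2 system, 2 other reductases or detoxification genes, 1 transferase and 1 of the thioredoxin system.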

How the data were processed

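RNA of 3 Tyr-L and 3 Tyr-H B16 libraries (VAHTS mRNA-seq v2 kit, paired reads of 150 bases) was profiled. Each library has its own table of gene-level FPKM deposited by the authors (fragments per kilobase of transcript scaled to mapped fragments). Trimmomatic, HISAT2, HISAT and the GRCm38.p6 build are named in the submitters' processing notes, while the quantifier, gene annotation and strand setting are not given in the sources used here. Genes without a row in a library were set to 0. FPKM keeps no counts, so fragments per library were estimated from the smallest steps of genes with a single transcript, and intervals from them cover counting error only.

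Genes averaging 0.1 FPKM or more were tested on log2(FPKM + 0.1) with limma 3.58.1 (R 4.3.3, empirical Bayes with a variance trend, two-sided, Benjamini-Hochberg over all 14336 genes), which was tested on simulated data. Calls needed an adjusted p of at most 0.05 and a log2 fold change of at least 1. Single genes and sums had an exact permutation test. Named with values were every member called or past 0.5 with adjusted p of at most 0.05, the most abundant member of each role, Nfe2l2, Keap1, every wider-list gene called, and Slc7a11, Bach1, Nfe2l1 and Txnip. Other named genes were picked after their values were seen. The members and lists were chosen with earlier results of these data known. Coordinates and 31-base words come from GENCODE M21, promoters from RefSeq. Alternatives were other pseudocounts, filters, scalings and variance models, a replicate block, summed paralogs (with Gm3776 added after seeing the data) and each library left out. Libraries with the same replicate number did not deviate together (r = 0.02, 0.01 and -0.08), so the numbers were not taken as pairs. The result of 1 marker gene is not reported here.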

Additional observations from a re-analysis of the deposited data

How the results depend on the processing

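Of the 10 members called, 8 kept their call under all 16 alternatives tried across all genes (Hmox1, Cth, Akr1b7, Gsta1, Gsta2, Gsta3, Gsta4 and Mgst1). Cbr1 lost it with a pseudocount of 1 FPKM (-0.92), median ratio scaling (-0.90), quantile normalization (-0.88) and without Tyr-H replicate 1 (-0.99), Gsto1 after rescaling to a total of 1000000 (0.96), while Gstp2 gained it with median ratio scaling (1.00) and Gstt1 with quantile normalization and without Tyr-L replicate 1. With no variance trend Keap1, Gsr and Prdx1 also missed the adjusted p (0.068, 0.090 and 0.075), as did Keap1 with robust variance (0.0503) and Prdx1 with no filter on low values (0.052). Keap1 reversed to 0.038 with median ratio scaling and 0.012 with quantile normalization, and Prdx1 and Sod1 reversed to 0.041 and 0.11 with median ratio scaling (Prdx1 was -0.26 with quantile normalization and -0.21 after rescaling); the median of all genes moves with these scalings. With no fold-change threshold 17 members were higher and 17 lower, and 2570 and 5722 of all genes. Genes called higher numbered 185 with a pseudocount of 1 FPKM and 247 among genes averaging 1 FPKM or more, and genes called lower 203 and 393, 1287 after rescaling and 494 with quantile normalization, against 425 and 829. Rescaling raises the values against the fixed filter and pseudocount, so that 15719 genes were tested in place of 14336, and its counts do not rest on the scaling alone. The share of all calls that were higher was 33.9%, and 48.4% with median ratio scaling, 55.3% with quantile normalization, 26.2% after rescaling and 47.7% with a pseudocount of 1 FPKM. Leaving out each library gave 391 to 442 genes higher, 751 to 842 lower, 4 to 5 members higher and 5 to 6 lower. Summed with the abundant Akr1b8, Akr1b7 differed by 0.28. On the wider list Sqstm1 (quantile normalization), Txnip and Gsto2 (pseudocount of 1 FPKM), Osgin1 (rescaling) and Sod3 (pseudocount of 1 FPKM, median ratio scaling, quantile normalization and without Tyr-H replicate 2) lost their calls. A fit with the replicate block gave 4 members higher and 6 lower and 430 and 828 genes in all, and changed no call of a named gene by both thresholds (Keap1, Gsr and Prdx1 missed the adjusted p, at 0.084, 0.053 and 0.068), and the shared numbers do not mark pairs. Values near 0, as for Cbs, Gstt1 and Akr1b7 in Tyr-L cells, rest on few fragments.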
